A study of Taeniopygia guttata with 8 samples.

Results

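Chromosomes 22 to 28 are small microchromosomes of the zebra finch. The table lists 35958 genomic regions with their H3K27ac read counts, and 2411 of them (6.705%) lie on these 7 chromosomes. They were taken by the chromosome name alone, with no cut on a measured value. Earlier results of these data were known when these chromosomes were chosen. A further 262 regions listed on "random" sequence assigned to these chromosomes were not taken as members. The 11909 regions on chromosomes 1 to 5 served as background.

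Bird genomes consist of a few large macrochromosomes and many small microchromosomes. Microchromosomes are known for a high gene density, a high GC content and frequent recombination. H3K27ac, acetylation of lysine 27 on histone H3, is found at active promoters and enhancers, and broad stretches of it often lie over strongly active genes.

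The study examined H3K27ac with ChIP-seq (sequencing of chromatin fragments pulled down by an antibody) in 2 song nuclei of adult male zebra finches, from birds that had been silent or had sung. RA, the robust nucleus of the arcopallium, is the pallial nucleus that drives the vocal and respiratory motor neurons. Area X is a striatal nucleus of the song circuit, needed for song learning. The labels give no transgene, allele or drug, and no age beyond adult.

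The 4 groups were RA silent, RA singing, Area X silent and Area X singing. Per the labels' protocols, birds were silent or sang for 1 to 2 h, with 18 birds per behaviour, and the singing samples are labelled as 2 h. Each pool held tissue of 6 birds, which gives 3 pools per behaviour. The table holds 3 silent and 4 singing libraries per nucleus, 14 in all, and the sources used here do not say where the fourth singing library came from. Column names do not state the assay, and "plus" was read as singing and "minus" as silent, so every direction by behaviour rests on that reading. Separate pools are assumed; if some libraries repeat the same pool, part of the spread behind each p-value is technical. Tissue of a nucleus also holds glia and other cells, and with regions given by position only, the cell types could not be checked against marker genes.

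Depth differed widely. Reads in all regions ranged from 0.203 M (RA singing library 4) to 10.6 M per library (M, 1e6 reads). Regions on chromosomes 22 to 28 had a median of 3 reads in RA singing library 4, where 349 of them had none, and medians of 20 to 179 reads in the other 13 libraries. Intervals therefore rest mostly on the remaining libraries. The sources used here do not name the genome build. Regions are therefore given by position as deposited, without gene names or sequence.

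Regions were far denser on chromosomes 22 to 28 than on the macrochromosomes. The 2411 regions lay within 32.6 Mb, measured on each chromosome from its first to its last region, which is 73.9 regions per Mb. Chromosomes 1 to 5 held 22.9 regions per Mb over 519 Mb, so the density was 3.22 times higher on chromosomes 22 to 28. The ratio was 3.08 when regions at most 1000 bp apart were merged, and 3.54 among regions at or above the median signal of 13.8 CPM. CPM here are counts scaled to 1e6 reads in regions per library, with TMM factors (trimmed mean of M-values) between libraries. The chromosomes 6 to 21 lay between both sets, with 46.5 regions per Mb.

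Each of the 7 chromosomes exceeded each of chromosomes 1 to 5 in density. Chromosome 25 was the densest of the 31 placed chromosomes with at least 50 regions, with 88.4 regions per Mb. Chromosomes 28 and 24 followed with 79.0 and 78.5 per Mb, below chromosome 17 with 80.9. Chromosomes 26, 27, 22 and 23 held 71.7, 69.9, 69.2 and 68.1 regions per Mb. The range on chromosomes 1 to 5 was 19.1 to 33.6. The spread among the 7 chromosomes was smaller than the step from chromosome 5 to chromosome 23.

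**Figure D1:**
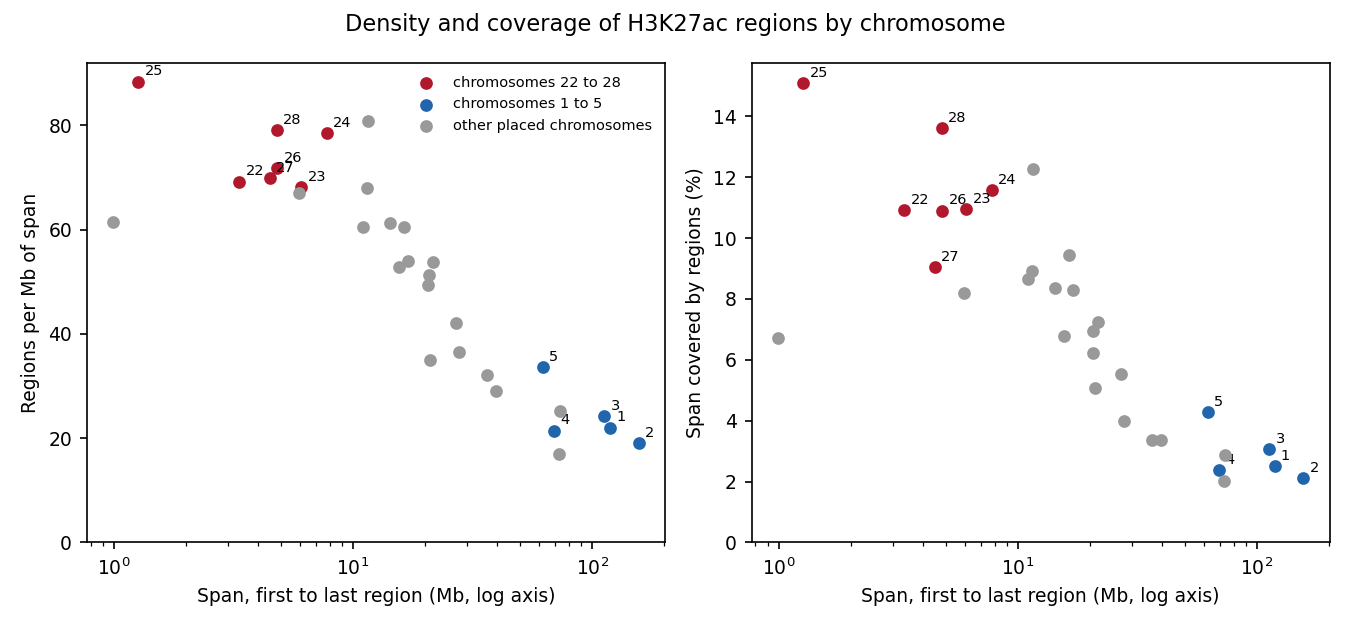
Regions per Mb (left) and percent of the span covered by regions (right) for each placed chromosome with at least 50 regions, against its span from first to last region in Mb on a log axis. Each point is a chromosome; chromosomes 22 to 28 lie at 68.1 to 88.4 regions per Mb and chromosomes 1 to 5 at 19.1 to 33.6.

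Regions covered 11.4% of the span of chromosomes 22 to 28 and 2.70% of that of chromosomes 1 to 5. The covered share was highest on chromosome 25, with 15.1%, and chromosome 28, with 13.6%. It was lowest on chromosome 27, with 9.05%. The median gap between neighbouring regions was 4644 bp, against 13180 bp on chromosomes 1 to 5. On chromosome 25 it was 2030 bp, and 25.2% of its gaps were at most 1000 bp, against 14.02% over the 7 chromosomes and 9.90% on chromosomes 1 to 5. Stretches over 100000 bp without a region numbered 26 on chromosomes 22 to 28, and the longest, of 401 kb, was on chromosome 25, which thus had both the shortest typical gap and the longest empty stretch of the 7.

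The densest stretch of 100 kb on each chromosome held 17 regions on chromosome 22 and 28 regions on chromosome 25. The latter lay at the very start of the sequence, at chr25:4-92464, with 46.8 kb covered. On chromosome 24 the densest stretch was chr24:4316397-4417499 with 24 regions, on chromosome 27 chr27:273289-364228 with 21, and on chromosome 23 chr23:3637489-3737633 with 20. The densest stretches of chromosomes 1 to 5 held 19 to 22 regions. Chromosomes 24 and 25 thus lay above that range, chromosomes 22 and 28, with 17 and 18 regions, below it, and the other 3 within it. These are maxima over unlike numbers of stretches. Chromosomes 1 to 5 each held 1486 to 2990 regions from which a stretch could start, against 112 to 610 on chromosomes 22 to 28. The maxima are therefore not compared on equal terms.

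Regions on chromosomes 22 to 28 were also somewhat wider. Their median width was 905 bp (quartiles 513 and 1817 bp), against 787 bp (456 and 1427 bp) on chromosomes 1 to 5. Regions over 4000 bp made up 7.26% of the members (175 regions) and 3.33% (397 regions) of the background. The share ranged from 4.46% on chromosome 27 to 9.45% on chromosome 28. The widest were chr23:3919810-3942383, of 22574 bp, and chr28:2257303-2278466, of 21164 bp.

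Regions on these chromosomes held slightly more signal, and about the same per kb. The median of the mean CPM was 16.8 on chromosomes 22 to 28 and 14.4 on chromosomes 1 to 5. Per kb of region, the medians were 17.52 and 17.50 CPM. By chromosome, the median CPM per kb ranged from 15.5 on chromosome 24 to 19.6 on chromosome 23. Regions of at least 100 CPM made up 7.67% of the members (185 regions) and 4.05% of the background (482 regions). The tenth of regions with the highest CPM held 47.5% of the summed CPM of the members, against 41.8% in the background.

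The highest signal on these chromosomes was at chr22:87241-103317, a region of 16077 bp with a mean of 843 CPM. In the 7 RA libraries its level had a lowest value of 554, a median of 641 and a highest of 840 CPM, and in the 7 Area X libraries 803, 1021 and 1234 CPM. The groups overlapped only between the highest RA and the lowest Area X libraries. The level was 1.47-fold higher in Area X (log2 fold change 0.56, SE 0.17, edgeR adjusted p = 0.0126), and the value turned to -0.47 under a scaling that depends on signal (edgeR adjusted p = 0.00767). The call was also lost with total-count scaling (0.23), with regions under the median CPM left out (0.32), without RA silent library 1 (0.41) and without the libraries numbered 1 (0.40). The widest region, chr23:3919810-3942383, stood at 361, 665 and 834 CPM in RA (lowest, median, highest) and at 423.5, 490 and 528 CPM in Area X. Its groups overlapped, and its difference did not pass the test (log2 fold change -0.34, SE 0.18, edgeR adjusted p = 0.123).

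Summed over regions, reads per kb on chromosomes 22 to 28 relative to chromosomes 1 to 5 were higher in RA than in Area X. This ratio differs from the ratio of reads tested below only by a constant, so both hold the same difference between the nuclei. The log2 ratio of reads per kb was 0.17 ± 0.14 for RA and -0.065 ± 0.17 for Area X (SD, 7 libraries each). It lay above 0 in 6 of 7 RA libraries and in 2 of 7 Area X libraries, and the Area X mean was within its SD of 0. The mean over all 14 libraries was 0.055 (exact sign-flip permutation test, two-sided, p = 0.307), which pools both nuclei. The sign of that mean changed when medians over regions replaced sums (-0.060), and without the libraries numbered 1 (-0.010).

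The next question was how the nuclei differ on these chromosomes, and the share of each library's reads that fell there gives a value per library. In RA the share was 9.31%, 8.42% and 9.37% in silent libraries 1 to 3, and 9.39%, 8.62%, 9.25% and 8.35% in singing libraries 1 to 4. In Area X it was 8.92%, 7.97% and 8.21% in the silent libraries, and 8.98%, 8.25%, 7.36% and 7.97% in the singing libraries. Of the RA libraries, 4 lay above every Area X library, and of the Area X libraries, 5 lay below every RA library.

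The mean share of the RA libraries was 8.96% ± 0.473 and that of the Area X libraries 8.24% ± 0.570 (SD, 7 libraries each), a difference of -0.723 percentage points (exact permutation test, two-sided, p = 0.0262; the smallest p possible is 0.000583). The test no longer passed without RA singing library 1 (-0.651, exact p = 0.0501) or without Area X singing library 3 (-0.577, exact p = 0.0524). Within a behaviour the difference was -0.670 in silent birds (exact p = 0.200) and -0.764 in singing birds (exact p = 0.114), with the same sign in both. With 3 against 3 libraries the silent test could not pass at 0.05.

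The libraries numbered 1 stood high in both nuclei. They held 9.31% and 9.39% in RA and 8.92% and 8.98% in Area X, where the other 5 libraries reached at most 8.25%. The lowest RA shares came from silent library 2 and from singing libraries 2 and 4. In these 3 libraries the share on chromosomes 1 to 5 was also the highest of RA, at 30.8% to 31.9%, as high as in some Area X libraries. What sets these libraries apart was not tested.

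**Figure D2:**
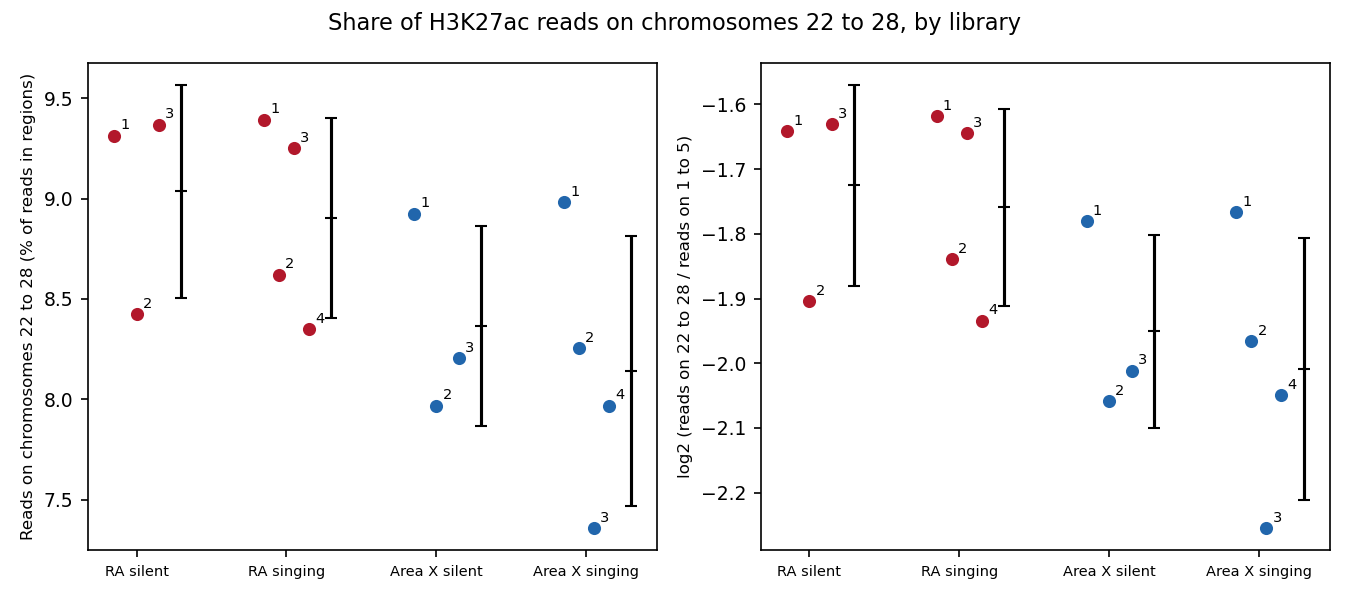
Percent of each library's reads in regions that fell on chromosomes 22 to 28 (left) and the log2 ratio of those reads to the reads on chromosomes 1 to 5 (right), by group. Points are libraries with their numbers, and bars are mean ± SD of 3 or 4 libraries; RA means lie at 9.04% and 8.90% and Area X means at 8.37% and 8.14%.

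Whether this differs from the macrochromosomes was tested with the ratio of reads on both. The share on chromosomes 1 to 5 was 30.0% ± 1.36 for RA and 32.5% ± 1.59 for Area X (SD, 7 libraries each). For each read on chromosomes 1 to 5, RA libraries had 0.2997 ± 0.0288 reads on chromosomes 22 to 28 and Area X libraries 0.254 ± 0.0298. The log2 ratio was 0.24 lower in Area X (difference -0.24, exact permutation test, two-sided, p = 0.0169). Leaving out each library in turn gave -0.28 to -0.19, with an exact p of at most 0.0338. The difference was -0.28 without the libraries numbered 1 of both nuclei (exact p = 0.00794), a choice made after the values were seen. Only the Area X libraries numbered 1 (log2 ratio -1.78 and -1.77) reached into the RA range, whose lowest value was -1.93. The other Area X libraries reached at most -1.97. Leaving out the libraries numbered 1 thus had to separate the nuclei, and that p adds no support. It was -0.20 in regions up to 1000 bp (exact p = 0.0309) and -0.57 in regions over 4000 bp (exact p = 0.00932).

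By chromosome, the shift toward RA was uneven. Chromosome 24 held 2.09% ± 0.148 of the reads of RA and 1.83% ± 0.0823 of those of Area X (SD, 7 libraries each; exact permutation test, adjusted over 7 chromosomes, p = 0.00816). Chromosome 25 held 0.494% ± 0.0511 in RA and 0.389% ± 0.0402 in Area X (exact test, adjusted p = 0.00816). Chromosome 26 held 1.26% ± 0.121 and 1.05% ± 0.110 (exact test, adjusted p = 0.0190). On each of these 3 chromosomes the libraries of both nuclei still overlapped: the lowest RA value of chromosome 24 was 1.93% and the highest Area X value 1.97%.

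The other 4 chromosomes did not pass. Chromosome 23 held 1.69% in RA and 1.54% in Area X (exact test, adjusted p = 0.0959). Without Area X singing library 1, which held the highest Area X share of chromosome 23, the difference was -0.185 (exact test, adjusted p = 0.0245). Chromosomes 22, 27 and 28 differed by -0.0015, 0.017 and -0.021 percentage points between Area X and RA (exact test, adjusted p = 0.936, 0.771 and 0.771). The sign of each of these 3 differences changed when single libraries were left out.

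**Figure D3:**
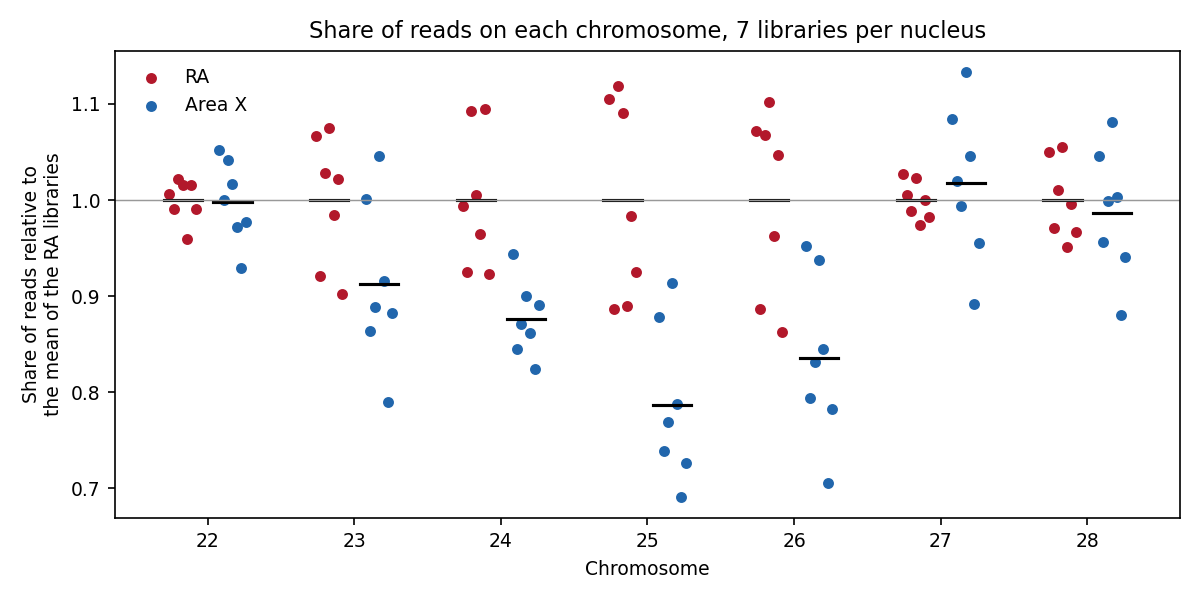
Share of reads on each of chromosomes 22 to 28, divided by the mean share of the RA libraries on that chromosome (RA mean = 1). Points are the 7 libraries of each nucleus and bars their means; Area X libraries lie lowest on chromosome 25, where RA held 0.494% and Area X 0.389% of reads, and spread around 1 on chromosomes 22, 27 and 28.

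Region by region, more members were higher in RA than in Area X, the reverse of chromosomes 1 to 5 under the TMM scaling. All 2411 members passed the filter on low counts and were tested. In the edgeR quasi-likelihood test averaged over behaviour, 744 members (30.9%) were higher in RA, where 25.3% of all tested regions were called in that direction (53.7% in either). Members higher in Area X numbered 487 (20.2%), against 28.5% of all tested regions. On chromosomes 1 to 5 the calls toward RA came to 20.8% and those toward Area X to 33.3%. The median log2 fold change (Area X over RA) was -0.27 on chromosomes 22 to 28 and 0.13 on chromosomes 1 to 5. Differences over 2-fold were called in 496 members toward RA (20.6%, against 18.5% of all regions) and in 302 toward Area X (12.5%, against 21.9%).

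Scaling moved these counts. With total-count scaling the median of all regions fell from -0.04 to -0.35. The members split into 321 toward Area X (13.3%, against 19.6% of all regions) and 990 toward RA (41.1%, against 34.2%). Area X calls thus made up 24.5% of the members' calls in place of 39.6%. Chromosomes 1 to 5 then also leaned toward RA, with 2733 and 3427. A single factor per library shifts both sets of regions alike, so such scalings do not test the gap between their medians. Under the scaling that depends on signal, the median log2 fold change was -0.31 for the members and 0.058 for chromosomes 1 to 5. With single libraries left out in turn, the members' median minus that of chromosomes 1 to 5 ran from -0.45 to -0.36. Without the libraries numbered 1, the members' counts were 330 toward Area X (13.7%, against 21.3% of all regions) and 768 toward RA (31.9%, against 25.9%).

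The chromosomes differed in their calls as they did in their shares of reads. Of all tested regions, 25.3% were called toward RA and 28.5% toward Area X. Chromosome 11, which is not among the members, had 40.3% toward RA and 12.9% toward Area X. On chromosome 24, 240 of 610 regions (39.3%) were higher in RA and 112 (18.4%) in Area X. On chromosome 26 the counts were 137 of 347 (39.5%) and 53 (15.3%), and on chromosome 25 they were 41 of 112 (36.6%) and 12 (10.7%). Of these 41, 25 lay in the stretch chr25:4-92464. The remaining 84 regions of chromosome 25 held 16 toward RA and 12 toward Area X. Chromosome 23 had 117 of 415 regions (28.2%) higher in RA and 79 (19.0%) in Area X. On chromosomes 27 and 28 the directions were nearly balanced, with 74 and 72 of 314, and 85 and 84 of 381. On chromosome 22, 75 of 232 regions (32.3%) were called toward Area X and 50 (21.6%) toward RA, and this order turned to 48 and 69 with total-count scaling and to 47 and 56 without the libraries numbered 1. On chromosomes 23 to 26 more regions were higher in RA under all 23 alternatives. On chromosomes 27 and 28 the order was not stable, with more toward RA in 19 and 13 of them.

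Within each behaviour fewer regions passed. In silent birds 259 members (10.7%) were called toward Area X and 275 (11.4%) toward RA, where 10.3% and 9.5% of all regions were called (19.8% in either direction). In singing birds the counts were 232 (9.62%) and 233 (9.66%), against 10.4% and 8.09% (18.5% in either direction). Of these, 169 were higher in Area X in both behaviours (65.3% of the silent and 72.8% of the singing calls) and 150 were higher in RA in both (54.5% and 64.4%). No member was called in opposite directions.

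Counting regions whose libraries did not overlap turned the balance the other way. In 154 members (6.39%, against 4.38% of all regions) each Area X library lay above each RA library, and in 94 (3.899%, against 3.67%) each RA library lay above each Area X library. The 349 members with no read in RA singing library 4 could not count toward RA. Both directions were therefore not counted on equal terms. How far this moved the balance was not tested, so no direction between the nuclei is read from these counts. On chromosomes 1 to 5 the shares were 3.36% and 2.78%.

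The direction of the difference varied with width and with signal. Among members up to 500 bp, Area X was higher at 9.60% and RA at 27.6%. The share higher in Area X rose with each width class, to 13.8%, 20.3%, 35.03% and, over 4000 bp, 50.9%. The share higher in RA stayed between 27.6% and 36.2% in all 5 classes. On chromosomes 1 to 5 the share higher in Area X rose from 18.5% to 80.1% over the same classes, while the share higher in RA dropped from 23.8% to 10.1%. In each of the 5 width classes the members' share higher in Area X was below, and their share higher in RA above, that of the background. These shares count regions that share the same libraries and carry no test of their own.

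The same held by signal, again with the TMM scaling alone. In the lowest quintile of mean CPM, 5.95% of members were called toward Area X and 36.2% toward RA, and in the highest quintile 43.9% and 22.4%. On chromosomes 1 to 5 these shares were 19.0% and 31.0% in the lowest quintile, and 52.0% and 8.98% in the highest. The sources used here do not give the criteria for calling regions. Of the reads on chromosomes 22 to 28, regions over 4000 bp took 35.4% ± 2.39 for RA and 40.0% ± 2.22 for Area X (SD, 7 libraries each). On chromosomes 1 to 5 such regions took 15.9% ± 3.56 for RA and 22.4% ± 3.23 for Area X, so this rise is not particular to the members.

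**Figure D4:**
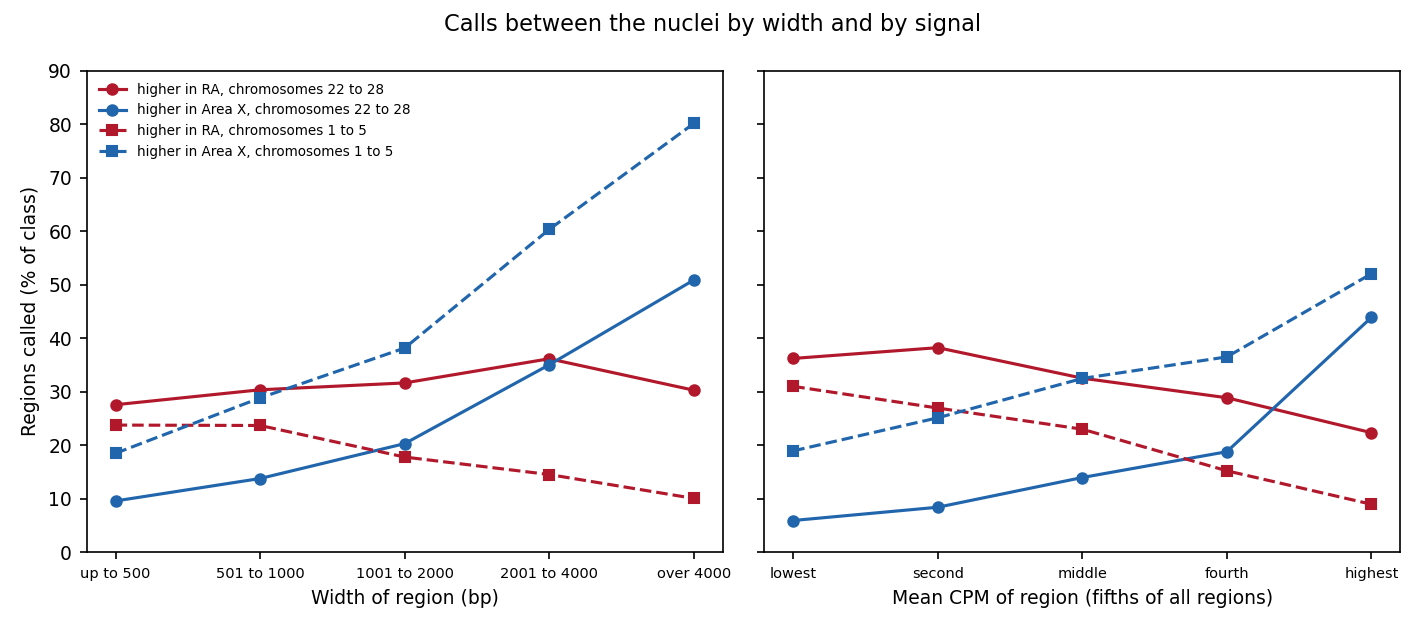
Percent of regions called higher in RA (red) or in Area X (blue) with TMM scaling, by width class (left) and by quintile of mean CPM (right). Solid lines are chromosomes 22 to 28 and dashed lines chromosomes 1 to 5; the share higher in Area X rises with width from 9.60% to 50.9% on chromosomes 22 to 28 and from 18.5% to 80.1% on chromosomes 1 to 5.

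Neighbouring regions tended to differ the same way between the nuclei. Over 337 pairs of neighbours at most 1000 bp apart on chromosomes 22 to 28, their log2 fold changes had a Pearson coefficient of 0.80. It was 0.55 over 1318 pairs over 1000 and up to 10000 bp apart, and 0.32 over 723 pairs up to 100000 bp apart. On chromosomes 1 to 5 the values were 0.87, 0.73 and 0.46. These describe pairs of regions that share the same 14 libraries, and are not tests.

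Called regions formed runs. Taking 5 or more regions in a row with the same call and gaps up to 10000 bp as a run, these numbered 17 toward RA and 12 toward Area X. No such count was made for chromosomes 1 to 5 or for all regions. With 30.9% of members called toward RA and 20.2% toward Area X, the run counts do not set the members apart. Of those toward RA, 7 lay on chromosome 24, 5 on chromosome 26, 2 each on chromosomes 23 and 25 and 1 on chromosome 28. Those toward Area X lay on chromosomes 22, 24 and 28 (3 each), 23 (2) and 27 (1).

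The longest run toward RA was at the start of chromosome 25. It held 13 regions at chr25:4814-42645, and a second run of 11 regions followed at chr25:51441-89653. Summed over the 13 regions, CPM was 624, 389 and 760 in RA silent libraries 1 to 3, and 620, 533, 630 and 378 in RA singing libraries 1 to 4. In Area X it was 295, 223 and 228 in the silent libraries, and 254, 230, 256 and 246 in the singing libraries. Each RA library lay above each Area X library, but the run was picked for its calls toward RA, so this adds no separate support. The RA libraries spread more than the Area X libraries, with 562 ± 139 against 248 ± 24.6 CPM (SD, 7 libraries each). The second run summed to 422 ± 124 CPM in RA and 205 ± 18.3 in Area X.

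Both runs fall in the densest stretch of the chromosome, chr25:4-92464. Of its 28 regions, 25 were higher in RA and 0 in Area X, and the median log2 fold change was -1.35. The remaining 84 regions of chromosome 25 split into 16 toward RA and 12 toward Area X, with a median of -0.12. Over the 23 alternatives, 0 regions of the stretch were called toward Area X. Where all 28 were tested, at least 21 were called toward RA, the lowest count being without RA silent library 3. With regions under the median signal left out, 15 of the 15 tested were called toward RA. This stretch was singled out after its values were seen. Its smallest adjusted p, also the smallest of all members, was at chr25:51441-56983. There CPM was 156, 112 and 206 in RA silent libraries, 123, 111, 135 and 117 in RA singing libraries, 55.3, 35.2 and 44.2 in Area X silent libraries and 42.7, 48.9, 37.3 and 45.8 in Area X singing libraries. No library overlapped with the other nucleus, and the level was 3.13-fold higher in RA (log2 fold change -1.65, SE 0.19, edgeR adjusted p = 0.000206).

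The longest run toward Area X was on chromosome 28, with 8 regions at chr28:1751776-1797159. Its summed CPM was 1006, 1401 and 1664 in Area X silent libraries and 1230, 1172, 1708 and 1583 in Area X singing libraries. In RA it was 357, 833 and 438 in the silent libraries and 405, 567.7, 512 and 865 in the singing libraries. The highest RA values came from RA silent library 2 and RA singing library 4, and remained below the lowest Area X library. This run was likewise picked for its calls. On chromosome 23, 7 regions at chr23:3112343-3172038 summed to 1404 ± 281 CPM in Area X and 623 ± 182 in RA (SD, 7 libraries each).

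**Figure D5:**
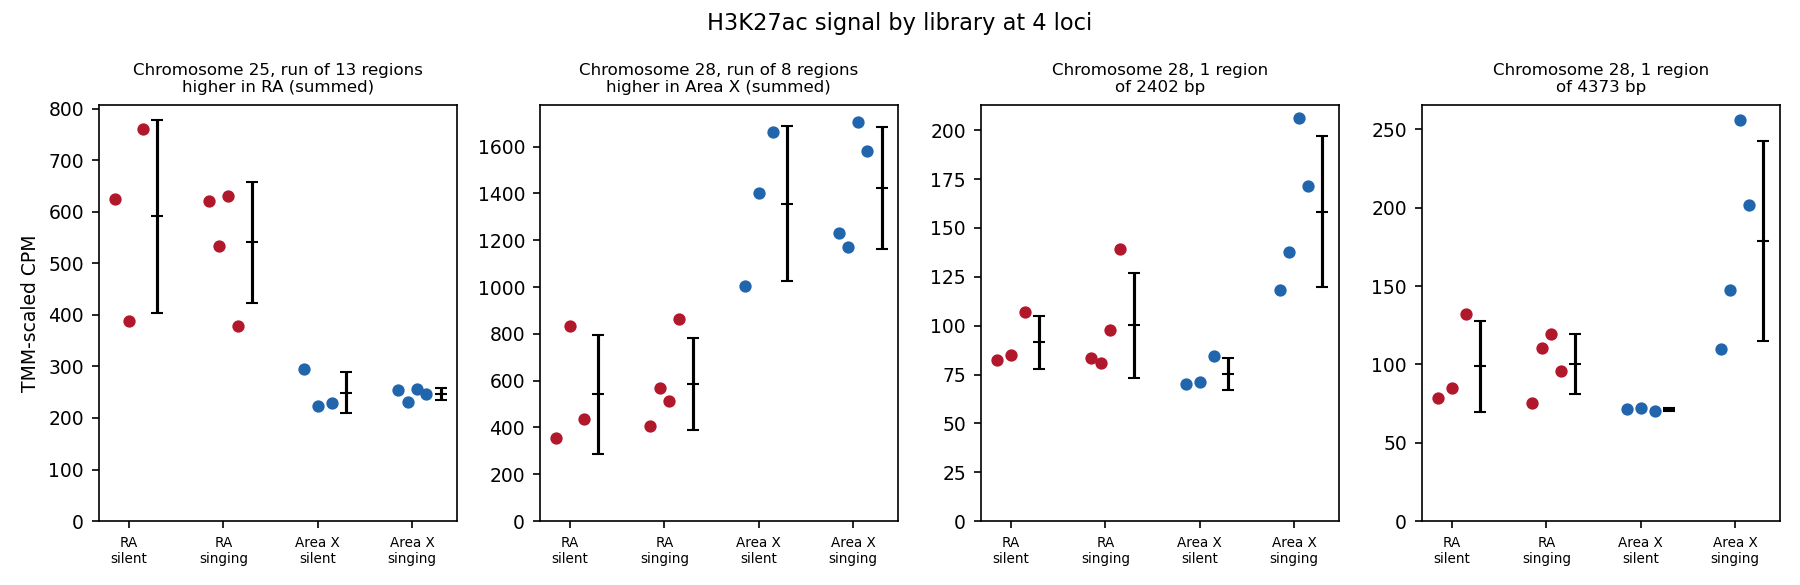
TMM-scaled CPM of each library at 4 loci: the summed run of 13 regions on chromosome 25, the summed run of 8 regions on chromosome 28, and 2 single regions on chromosome 28. Points are libraries and bars mean ± SD of 3 or 4 libraries; in the last panel the 3 Area X silent libraries lie at 70.3 to 72.1 CPM and the 4 singing libraries at 110 to 256 CPM.

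Single regions are named by a rule: the 10 largest called fold changes in each direction among regions at or above the median signal whose libraries do not overlap between the nuclei. Toward Area X, 4 lay on chromosome 23, 3 on chromosome 24, 2 on chromosome 28 and 1 on chromosome 26, with folds of 3.38 to 5.23. The largest was at chr24:847534-850267, a region of 2734 bp. Its CPM in RA was 10.6, 23.9 and 5.32 in silent libraries and 8.11, 9.18, 6.81 and 17.4 in singing libraries. In Area X it was 46.4, 58.7 and 77.8 in silent libraries and 39.0, 39.2, 69.4 and 56.6 in singing libraries. RA silent library 2 and RA singing library 4 were again the highest of RA, the latter with only 4 reads here. The mean was 55.3 ± 14.9 CPM in Area X and 11.6 ± 6.65 in RA (SD, 7 libraries each). The edgeR estimate was 5.23-fold (log2 fold change 2.39, SE 0.31, edgeR adjusted p = 0.00058). Folds of named regions are such estimates, not ratios of the printed means.

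Several of these regions lay close together. Of the 4 on chromosome 23, 3 fell between 4740809 and 4764397, at chr23:4740809-4742736 (3.40-fold), chr23:4748247-4752919 (3.57-fold) and chr23:4762285-4764397 (3.57-fold). The strongest of them, chr23:4748247-4752919, had 62.1 ± 36.5 CPM in RA and 214 ± 48.7 in Area X (SD, 7 libraries each). The other was chr23:78166-79420 (4.36-fold). On chromosome 24, chr24:1163991-1165811 (4.10-fold) and chr24:1174915-1179864 (3.56-fold) were neighbours. On chromosome 28 the 2 regions were chr28:4144388-4145410 (3.56-fold) and chr28:4190115-4194300 (3.46-fold), and on chromosome 26 it was chr26:1993822-1994942 (3.38-fold).

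Toward RA, 4 of the 10 regions lay on chromosome 23, 3 on chromosome 25, 2 on chromosome 24 and 1 on chromosome 22, with smaller folds of 3.09 to 3.74. The strongest signal among them was at chr22:2671260-2678051, of 6792 bp. RA libraries stood at 203, 103 and 208 CPM in silent birds and at 215, 143, 138 and 100 CPM in singing birds. Area X libraries stood at 70.5, 35.2 and 34.1 CPM and at 70.8, 54.5, 41.4 and 46.7 CPM. The libraries numbered 1 were the highest of Area X here, and below each RA library, which the rule for naming requires. The level was 3.23-fold higher in RA (log2 fold change -1.69, SE 0.25, edgeR adjusted p = 0.000679).

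The 3 regions on chromosome 25 were chr25:26162-29087 (3.71-fold), chr25:51441-56983 and chr25:22824-24026 (3.13-fold), all within the stretch at the start of the sequence. The largest fold was at chr24:6364456-6365355, estimated by edgeR at 3.74. Its mean was 22.9 ± 8.16 CPM in RA and 6.66 ± 2.72 in Area X (SD, 7 libraries each). The others were chr23:745931-747175 (3.60-fold), chr23:1815418-1817278 (3.29-fold), chr23:641732-643777 (3.23-fold), chr24:3220031-3221623 (3.17-fold) and chr23:3063224-3065771 (3.09-fold).

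The widest and strongest regions of each chromosome differed in direction. On chromosome 27, chr27:2464107-2474177 was both the widest, at 10071 bp, and the strongest. Its lowest, median and highest CPM were 156, 233 and 569 in RA and 588, 806 and 933 in Area X. Both nuclei were separate, and the level was 2.56-fold higher in Area X (log2 fold change 1.35, SE 0.25, edgeR adjusted p = 0.00121). The strongest regions of chromosomes 25 and 26, chr25:117238-126820 and chr26:4061399-4070326, were 1.92-fold and 1.93-fold higher in Area X, and neither was called under the scaling that depends on signal (log2 fold changes 0.093 and 0.11). The widest of chromosomes 24 and 26, chr24:311414-326887 and chr26:32794-46612, were 1.42-fold and 1.47-fold higher in RA. The former was no longer called without RA silent library 3 (log2 fold change -0.43). On chromosome 28, chr28:2257303-2278466 had 660 ± 95.1 CPM in RA and 699 ± 72.7 in Area X, a difference that did not pass (edgeR adjusted p = 0.691).

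The last question was whether H3K27ac on these chromosomes differed between singing and silent birds. In the edgeR test, 0 of 2411 members were called in RA, in Area X, averaged over the nuclei or for a difference of the singing effect between them, where 0% of all regions were called too. DESeq2 also called 0 members in each of these contrasts, with a smallest adjusted p of 0.172 in Area X. At an unadjusted p under 0.05, edgeR gave 37 members in RA (1.53%, against 1.96% of all regions) and 27 in Area X (1.12%, against 1.07%). For the mean of both nuclei it gave 59 (2.45%, against 2.6%) and for the difference 7 (0.290%, against 0.587%). DESeq2 gave 41, 40, 73 and 14. Each of the edgeR shares lay below the 0.05 that would pass by chance if no region differed. The 95% confidence interval of a singing log2 fold change had a median half-width of 0.86 in RA and 0.82 in Area X. These intervals are not adjusted over regions, so changes larger than that could also go uncalled. At chr28:4251820-4256192 a log2 fold change of 1.32 in Area X was not called.

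The share of reads on chromosomes 22 to 28 as a whole differed between behaviours by less than the SD among libraries. In RA it was 9.04% ± 0.530 in silent (n = 3) and 8.90% ± 0.4999 in singing libraries (n = 4; exact permutation test, p = 0.800). In Area X it was 8.37% ± 0.498 and 8.14% ± 0.674 (exact permutation test, p = 0.800). With 3 against 4 libraries the smallest p possible is 0.0571, so this test could not pass at 0.05. Singly, the 7 chromosomes in 2 nuclei gave 14 comparisons, with an adjusted exact p of 0.971 for each. The lowest raw p was 0.114, on chromosome 22 in Area X, with 0.898% ± 0.0240 in silent and 0.848% ± 0.0311 in singing libraries, a difference of -0.0498 percentage points that exceeded either SD.

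The members with the smallest p in each singing contrast are named here although none passed. In Area X these included 2 neighbours on chromosome 28. At chr28:4251820-4256192, of 4373 bp, CPM was 71.7, 72.1 and 70.3 in Area X silent libraries and 110, 147, 256 and 202 in Area X singing libraries. In RA it was 78.8, 85.3 and 132 in silent and 75.6, 110, 119 and 95.6 in singing libraries. Singing and silent libraries were separate in Area X and overlapped in RA. The singing log2 fold change was 1.32 in Area X (95% interval 0.68 to 1.97, edgeR unadjusted p = 0.000403, adjusted p = 0.99996) and 0.022 in RA. The difference between nuclei had an unadjusted edgeR p of 0.00649 (adjusted p = 0.99994). At chr28:4247805-4250206, CPM was 70.1, 71.2 and 84.6 in Area X silent libraries and 118, 138, 206 and 171 in singing libraries, a log2 fold change of 1.07 (95% interval 0.50 to 1.64, edgeR adjusted p = 0.99996).

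Another 4 regions lie just before these, from chr28:4233224-4237240 onward, and were looked at after the values of the neighbours were seen. In Area X, 5 of the 6 regions had singing libraries that all lay above the silent ones, and their log2 fold changes were 0.41 to 1.32. At chr28:4233224-4237240 the level was 129 ± 2.78 CPM in silent (n = 3) and 193 ± 16.5 CPM in singing libraries (n = 4) of Area X, a log2 fold change of 0.58 with a 95% interval of 0.11 to 1.06. In RA the 6 log2 fold changes lay between -0.19 and 0.39, and each interval included 0. These neighbours share the same libraries, and none passed adjustment.

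In RA the member with the smallest p was chr24:1387401-1388680. Its CPM was 16.8, 16.6 and 17.5 in RA silent libraries and 11.99, 3.34, 4.82 and 4.35 in RA singing libraries, the last from 1 read. Singing libraries were below silent ones, by a log2 fold change of -1.27 (95% interval -2.09 to -0.45, edgeR adjusted p = 0.99998). In Area X its level was 13.98, 20.97 and 16.4 CPM in silent and 14.3, 13.3, 13.6 and 14.9 CPM in singing libraries. For the mean of both nuclei the smallest p was at chr22:428975-429366, of 392 bp, at 1.51 to 4.42 CPM in RA silent and 1.94 to 17.5 CPM in RA singing libraries. In Area X it stood at 4.46 to 5.64 CPM in silent and 9.85 to 22.9 CPM in singing libraries (log2 fold change 1.60, 95% interval 0.69 to 2.52, edgeR adjusted p = 0.99999). RA libraries overlapped there and Area X libraries did not.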

How the data were processed

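The authors deposited 1 table of raw read counts per region and library, with no normalization. The submitters' processing notes name HTSeq 0.6.1, MACS2 2.1, SAMtools 1.1 and bedtools without their roles. The sources used here do not give the aligner, the build or how regions were called. Per the labels' protocols, tissue came from 400 µm sections, was fixed for 15 min in 1% formaldehyde and was sonicated to 200 to 400 bp. The source is labelled as laser-captured although the protocol describes dissection, and the antibody came in 2 lots. Libraries were assigned from column names, and both nuclei may have been taken from the same birds. No input was subtracted, since the 4 samples of whole-cell extract are not used here.

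Counts of all 35958 regions were tested in R 4.3.3 with edgeR 4.0.16 (quasi-likelihood, TMM, a mean per group, 14 libraries). filterByExpr removed 4 regions. P-values were adjusted by the Benjamini-Hochberg method over 35954 regions, with a threshold of 0.05. The common biological coefficient of variation was 0.392. DESeq2 1.42.0 was an alternative. Shares of reads were compared by exact permutation in SciPy 1.17.1. Intervals cover the spread between libraries, and low counts limit precision most in RA singing library 4.

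The members, lists and tests were chosen with earlier results of these data known. Regions named were the 10 largest called fold changes in each direction without overlap between 7 and 7 libraries and with mean CPM at or above the median, the 5 smallest p of each singing contrast where none passed, and the widest and strongest region of each chromosome. Same-numbered libraries of one behaviour deviated together in 4 of 7 pairs (correlation over 0.1, range -0.19 to 0.66), so numbers were not taken as pairs.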

Additional observations from a re-analysis of the deposited data

Results flagged for a closer look

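In 132 groups of 4 or 7 libraries at the named regions and shares, the distance of the highest or lowest library from its nearest neighbour was compared with the range of its group. In 2 of them a library stood apart beyond Dixon's 95% critical value, where chance alone gives about 6.6 (1 in 20). At chr24:1174915-1179864, RA silent library 2 stood at 67.4 CPM, while the other 6 RA libraries lay between 19.5 and 30.4 CPM. At chr25:1121437-1133971, the widest region of chromosome 25, RA silent library 3 stood at 407 CPM, against 226 to 300 CPM in the other RA libraries. There the level was 1.37-fold higher in RA (edgeR adjusted p = 0.0317), and the call was lost without that library (log2 fold change -0.36). It was also lost without RA singing library 3 (-0.41), Area X silent library 1 (-0.43) or 2 (-0.43), or Area X singing library 2 (-0.44).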

How the results depend on the processing

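Of 50 results on named regions, 1098 values under the alternatives kept the direction and side of the threshold, 27 fell below it, 6 moved past it and 7 changed sign. Under signal-dependent scaling the log2 fold change turned to -0.47 at chr22:87241-103317, -0.54 at chr23:3966641-3983500 and -0.95 at chr28:2257303-2278466. The last was not called in any case, and also turned to -0.24 with total-count scaling, -0.16 with regions below the median CPM left out, and -0.014 without the libraries numbered 1, with -0.0099 to 0.13 when libraries were left out in turn. The cause of these changes was not tested.

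Members higher in Area X numbered 321 with total-count scaling, 309 with those below the median CPM left out (fewer regions tested), 259 from silent and 232 from singing libraries. Those higher in RA numbered 449, 275 and 233 in the last 3. With regions below the median CPM left out, the members' shares were 22.6% toward Area X and 32.8% toward RA. All regions tested there gave 28.8% and 26.1%. Leaving out each library gave 376 to 498 toward Area X (15.6% to 20.7%, against 20.75% to 30.5% of all regions). Toward RA it gave 518 to 825 (21.5% to 34.2%, against 17.9% to 27.3%). No member was called for singing under any of 24 settings.

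The difference in the share of reads was -0.670 from silent and -0.764 from singing libraries, and -0.848 to -0.577 with libraries left out in turn. The difference in the log2 ratio to chromosomes 1 to 5 was -0.23 in silent and -0.25 in singing libraries, neither past the threshold. The silent test, with 3 against 3 libraries, could not pass it. The ratio of reads per kb turned to -0.060 with medians and to -0.010 without the libraries numbered 1. With libraries left out in turn, singing differences in the share ran from -0.438 to 0.0531 in RA and -0.506 to 0.0538 in Area X. Differences between nuclei ran from -0.00923 to 0.00857 on chromosome 22, -0.185 to -0.113 on chromosome 23, -0.00152 to 0.0374 on chromosome 27 and -0.0466 to 0.00670 on chromosome 28. Chromosome 23 stood at -0.229 without the 3 RA libraries of lowest share there (silent 2, singing 2 and 4), so that leaving them out could only widen the difference.

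With the library number as a replicate block, 521 members were called toward Area X (21.6%, against 31.6% of all regions). Toward RA, 780 were called (32.4%, against 26.5%). The difference in the log2 ratio remained at an exact p of 0.0156 (the smallest that 7 pairs allow), and no singing call was made. Of the 14 libraries, 7 correlated best with one of their own number. Libraries numbered 1 correlated by 0.52 to 0.72 over 6 pairs, a hint from the data and not from the design. Alternatives added after seeing the data were those without the libraries numbered 1, by width or signal, for density, and single libraries left out per chromosome. Medians over regions do not apply to shares. Depth limits RA singing library 4 most.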

Other observations

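The 262 regions on random sequence assigned to chromosomes 22 to 28 did not share the balance of the placed regions. Of them, 69 (26.3%) were called toward Area X and 67 (25.6%) toward RA in the edgeR test, against 28.5% and 25.3% of all regions. Their share of reads was 0.730% ± 0.0487 for RA and 0.874% ± 0.0497 for Area X (SD, 7 libraries each). The difference from the placed regions was not tested.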
